A study of Mus musculus with 8 samples.

Results

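The spots described here were the ones of each brain section richest in 6 genes of the hypothalamus: Baiap3, which acts in the release of dense-core vesicles, Hap1, a partner of huntingtin in vesicle transport, the orphan receptor gene Gpr101, the imprinted Delta-like gene Dlk1, Irs4, an adaptor of insulin signalling, and the homeobox gene Otp. A spot is a circle 55 µm wide on the capture array that can hold several cells of different types, or parts of them. Spots with at least 200 detected genes and at most 30% of their unique molecular identifiers (UMIs, each 1 captured RNA molecule) from mitochondrial genes were kept, and each was scored by the summed UMIs of the 6 genes per 10000 UMIs. The 7% of each section with the highest score were taken as members, 1492 of 21328 kept spots. They numbered 164 and 180 in the Control sections, 179 and 191 in the PTX sections, 194 and 199 in the PTX+GCV sections and, under the PTX+ABT263 label, 197 and 188. The score of the last spot inside and the first outside lay close together in every section, for example 9.38 and 9.32 in Control section 1, 6.32 and 6.30 in Control section 2 and 7.46 and 7.45 in PTX section 1. Across the 8 sections the last score inside ranged from 6.32 to 10.6, so that a spot of the same score could be a member in one section and not in another.

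The hypothalamus lies at the base of the brain and governs feeding, water balance, body temperature, sleep and the pituitary. It does so through many small nuclei, each known for its own peptides: vasopressin (Avp) and oxytocin (Oxt) from large cells of the paraventricular and supraoptic nuclei, orexin (Hcrt) and melanin-concentrating hormone (Pmch) from the lateral hypothalamus, and Agrp, Pomc and Ghrh from the arcuate nucleus. Which nuclei a coronal section crosses depends on its level from front to back, so the peptides of a section also tell where it was taken.

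The study placed fresh-frozen coronal brain sections of 10 µm on Visium arrays, whose spots sit 100 µm apart, to ask what paclitaxel (PTX), a chemotherapy drug, leaves behind in the brain and what removal of senescent cells changes. All mice carried p16-3MR, a transgene in which the p16 promoter drives a luciferase, a red fluorescent protein and a viral thymidine kinase, so that ganciclovir (GCV) kills cells in which that promoter is active. The 4 groups of 2 sections were Control (vehicle), PTX (5 mg/kg a day in 2 cycles of 5 days, 7 days apart), PTX followed by GCV (25 mg/kg a day) and PTX followed by ABT263 (1.5 mg/kg a day), an inhibitor of BCL-2 family proteins, the last pair of agents each given in 2 cycles of 5 days, 2 weeks apart. The labels give males of 9 to 10 months, and brains were taken 6 months after PTX. Nothing used here says whether the 2 sections of a group came from 2 mice, so every p-value below measures the spread between sections, which may be technical.

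The sections labelled PTX+ABT263 went against their label of male mice. Xist, a non-coding RNA made by female cells, had 99 and 107 UMIs in their members and 0 in the members of the other 6 sections, whereas the Y-linked Ddx3y had 4 and 0 UMIs there and 85 to 167 in the other 6. The sex of the tissue and the treatment can therefore not be told apart in that group, and results that rest on it are given separately. Members held between 2338086 and 3967335 UMIs a section, 7.64% to 13.9% of the UMIs of the kept spots. Their median depth was 11435 to 22273 UMIs a spot, against 7112 to 15231 in the other spots.

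Hap1 supplied most of the score. Its level in the summed members was 583 to 817 CPM (counts per 1000000 UMIs) over the 8 sections, against 183 to 294 CPM for Baiap3, 111 to 212 CPM for Dlk1, 38.0 to 69.7 CPM for Gpr101, 25.2 to 82.4 CPM for Irs4 and 10.4 to 90.0 CPM for Otp. These levels chose the members and are given as a description. Array positions were not used by the score, and the members nevertheless lay together: of the up to 6 spots touching a member, 45.1% to 68.0% were members too. They were divided by position into 2 clusters a section, a number set by the method and not found in the data. The cluster centres were 1.66 to 2.46 mm apart, with 4 to 10 spots in neither. The members formed 12 to 38 contiguous patches a section. The 2 largest patches held from 42.2% of the members (Control section 2) to 91.0% (PTX+ABT263 section 2).

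**Figure D1:**
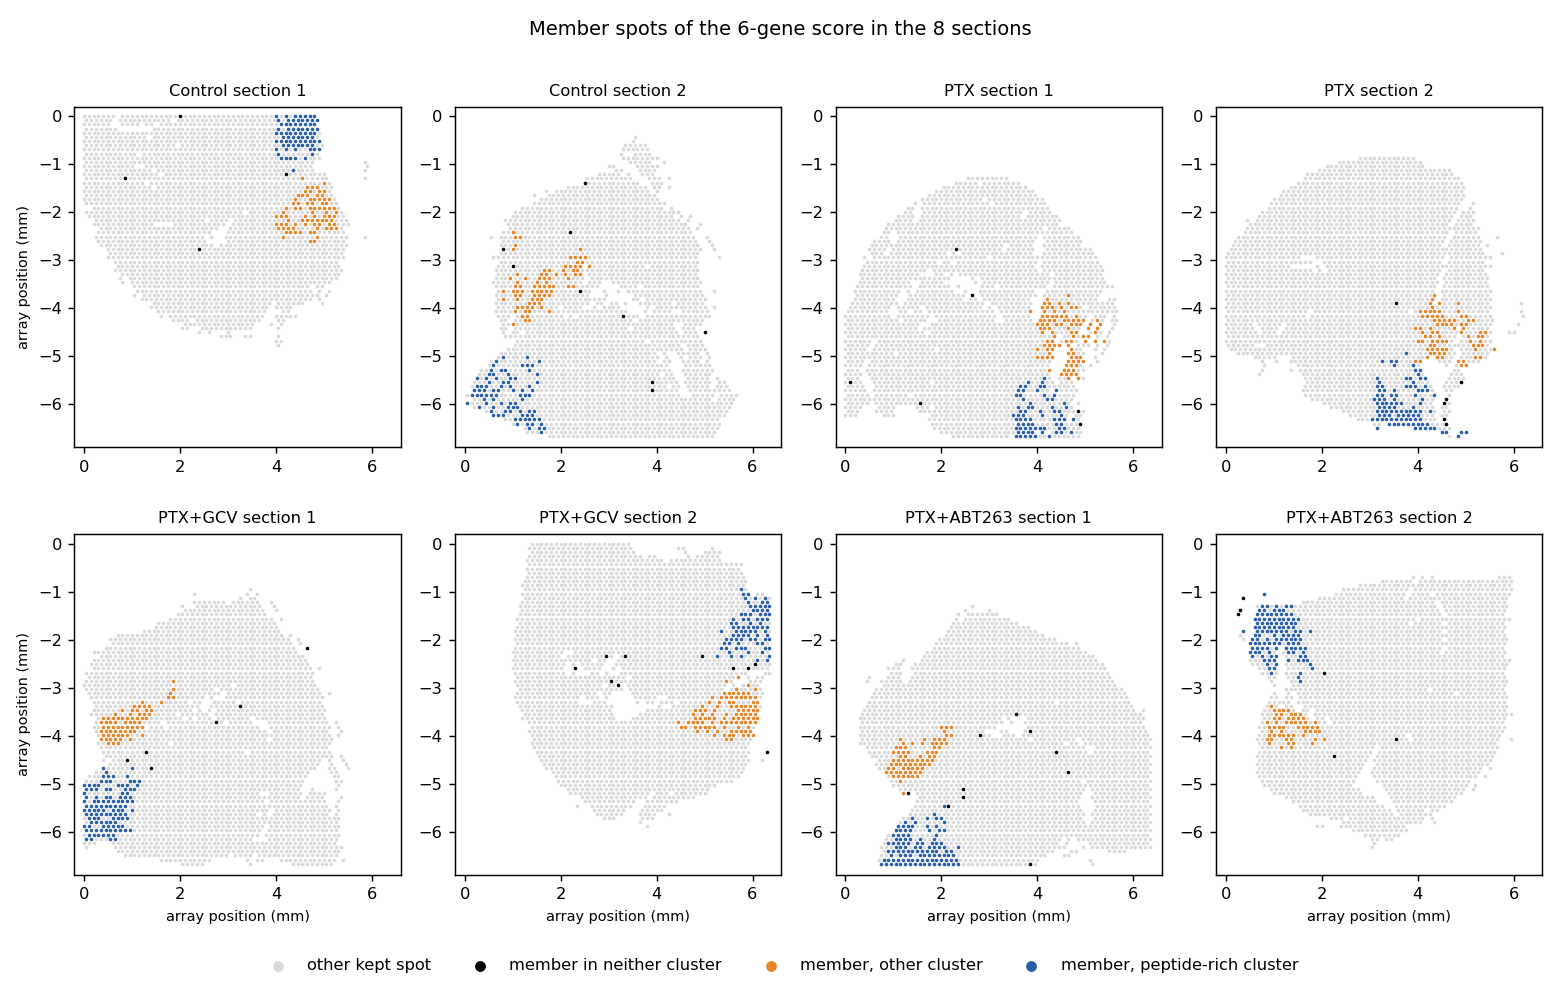
Position of every kept spot on the capture array, in mm, for the 8 sections. Blue points are members in the peptide-rich cluster, orange points members in the other cluster, black points members in neither and grey points the other kept spots, and the centres of blue and orange lie 1.66 to 2.46 mm apart.

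The clusters were told apart by the summed level of 4 peptide genes, Trh, Oxt, Hcrt and Pmch. The cluster in which they were higher, called peptide-rich here, held 72 to 124 spots a section, and the other held 58 to 105. The name refers to these 4 genes alone. The sum of all 31 neuropeptide genes was higher in the other cluster in Control section 2 (4400 against 1704 CPM) and in PTX section 1 (6636 against 5836 CPM). In Control section 2 the order rested on Pmch, of which 1 spot held 517 of the members' 570 UMIs. Without Pmch the sum there was 31.6 CPM in the peptide-rich cluster and 43.0 CPM in the other, the only section of 8 in which the order turned. The peptide-rich cluster reached the edge of the capture array in 7 of 8 sections, with 1 to 17 spots on it, so tissue beyond the edge was not captured. The other cluster had no spot on the edge in any section.

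For the other cluster the data went both for and against the name hypothalamus. The hypothalamus-enriched genes outside the score summed to 3552 to 4616 CPM there, to 4439 to 6181 CPM in the peptide-rich cluster and to 969 to 1283 CPM in the spots outside the members. The ventromedial and preoptic lists were higher in the other cluster than outside the members in every section. The lateral list, at 180 to 458 CPM, was lower than outside in Control section 1 and every PTX+GCV and PTX+ABT263 section. In Control section 2 and both PTX sections it was higher. Nkx2-1, a homeobox gene, had 0 to 7.62 CPM there, 2.13 to 38.8 CPM in the peptide-rich cluster and 1.36 to 2.34 CPM outside. The list of cortex and cortical amygdala summed to 165 to 655 CPM in the other cluster, 100.2 to 187 CPM in the peptide-rich one and 1065 to 1278 CPM outside the members. In PTX+GCV section 1 it was the lower of the clusters, at 165 against 182 CPM. The striatum list was higher in the other cluster than in the peptide-rich one in every section. It summed to 124 to 244 CPM against 78.6 to 137 CPM, with 221 to 553 CPM outside the members. Some genes known from cortical and limbic neurons were higher in the other cluster. Cck, cholecystokinin, had 278 to 1250 CPM there, 40.8 to 257 CPM in the peptide-rich cluster and 881 to 1265 CPM in the spots outside the members, and Nrgn, a calmodulin-binding protein of dendritic spines, had 1262 to 1957 CPM in the other cluster against 168 to 512 CPM in the peptide-rich one. Chrm1, Itpka, Ptk2b, Rprml, Arpp21 and Ddn were also higher in the other cluster in all 8 sections. So was Meis2, which is counted below with the transcription factors of the hypothalamus. These genes, and those that follow for the peptide-rich cluster, came from a ranking by the ratio between the same clusters. Their direction is given as a description. The peptide-rich cluster was higher in all 8 sections for Cbln1, a synapse organiser, with 58.1 to 207 CPM against 4.03 to 38.0 CPM, for Sncg, gamma-synuclein, with 57.3 to 161 CPM against 4.16 to 14.0 CPM, and for Dlk1, Pcbd1, Itih3, Minar2, Anxa5 and Sparc. Hap1 was high in both, as the score asks: it stood at 715 CPM in the peptide-rich cluster and 840 CPM in the other one in Control section 1. The members are therefore called by their score in what follows, and group results are also given for each cluster.

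**Figure D2:**
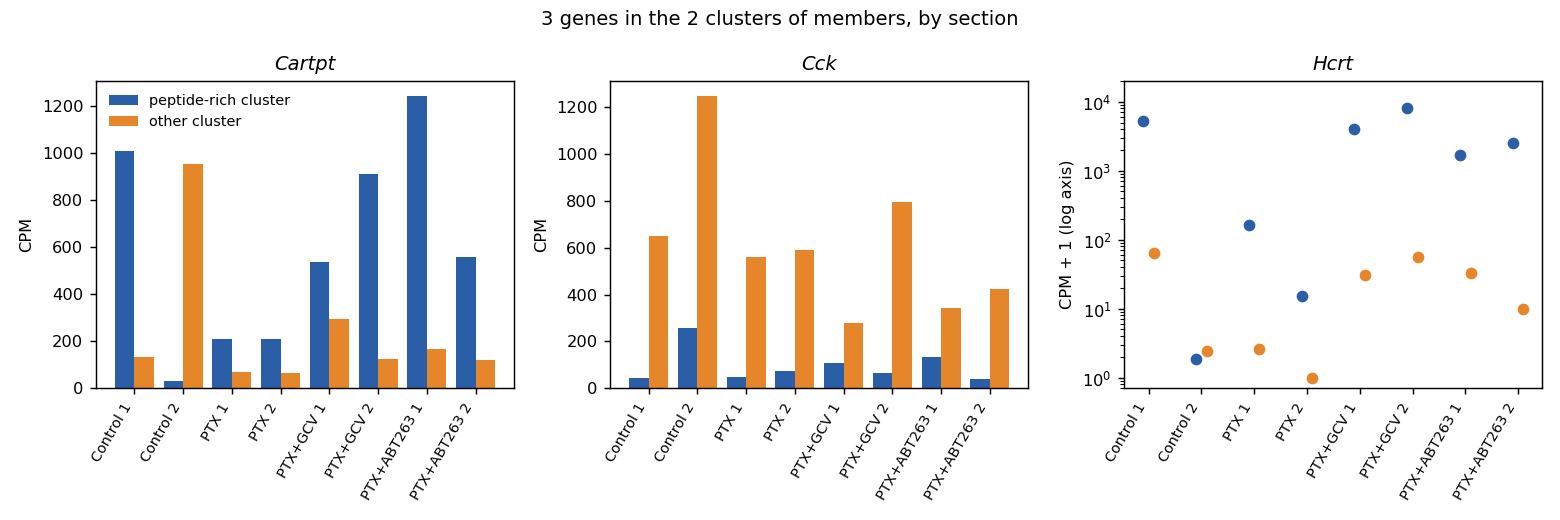
Level of Cartpt and Cck (bars, CPM on a linear axis from 0) and of Hcrt (points, CPM + 1 on a log axis) in the summed spots of the peptide-rich cluster (blue) and the other cluster (orange) of each section, 1 value a section and no error. Cck is at 278 to 1250 CPM in the other cluster and 40.8 to 257 CPM in the peptide-rich one, and Cartpt is higher in the peptide-rich cluster in every section but Control section 2.

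Against the other spots of their own section the members were rich in genes of neuropeptide-secreting neurons. No test was made of this, since members were chosen by measured values of the same spots; the figures are log2 ratios of CPM + 1, as the median and range of 8 sections. Of 2902 genes with at least 50 CPM in the members of every section, 984 were higher in members in all 8 sections and 50 were more than 2-fold higher in all 8. Gpx3, a secreted glutathione peroxidase, led with a ratio of 3.39 (2.89 to 3.92), from 102.5 to 268 CPM in members and 12.5 to 22.1 CPM outside. AW551984, a gene with no settled name, followed at 3.37 (2.94 to 4.01), Ngb, neuroglobin, the oxygen-binding globin of neurons, at 3.33 (2.76 to 3.77), Cartpt at 3.11 and Ecel1, an endopeptidase of neurons, at 2.75 (2.33 to 3.15). Every section lay well above 0 for each of the 15 highest genes.

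Genes of the secretory path were among them. Scg2, secretogranin II of dense-core granules, stood at 554 to 937 CPM in members and 182 to 232 CPM outside, and Resp18, another granule protein, at 687 to 1030 CPM and 160 to 229 CPM. Of 15 genes of peptide processing and dense core granules that passed the low-count filter, however, 9 were higher in members in all 8 sections and 4 were lower in all 8, with a median log2 ratio of 0.26. The same share over all 12627 genes past the filter was 2548 higher and 2656 lower, with a median of 0.01. A common direction in all 8 sections is therefore frequent among genes at large.

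**Figure D3:**
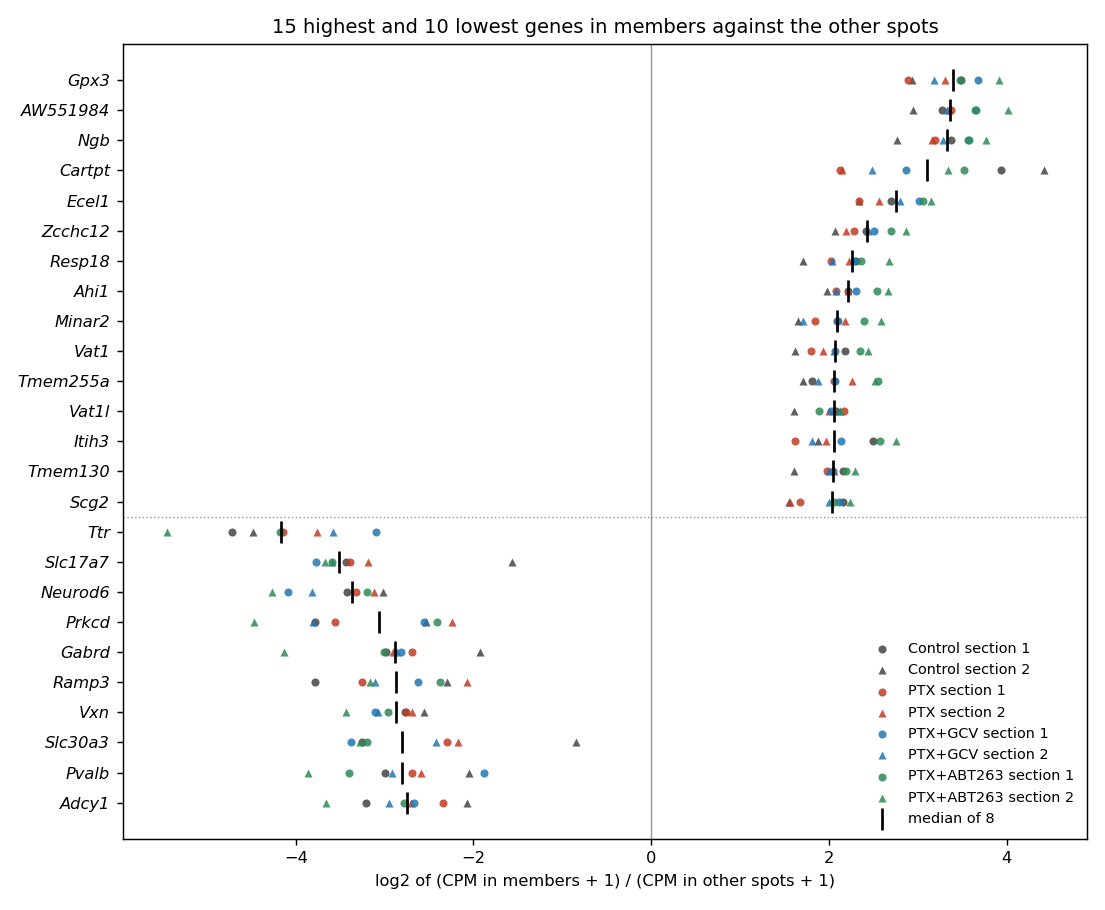
Log2 ratio of CPM + 1 in members to CPM + 1 in the other kept spots (x axis) for the 15 genes with the highest and the 10 with the lowest median ratio among genes of at least 50 CPM, leaving out the 6 score genes. Points are the 8 sections, coloured by group, and black bars their median, from 3.39 for Gpx3 to -4.16 for Ttr.

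The lists of the hypothalamus were read against those numbers, and not all of them were higher in members. All 13 hypothalamus-enriched genes outside the score were higher in members in all 8 sections, with a median log2 ratio of 2.26. They included Zcchc12, a transcriptional co-activator, at 2.43 (2.07 to 2.86), and Ahi1, a partner of Hap1, at 2.21 (1.98 to 2.67). Nkx2-1, the homeobox gene that patterns the hypothalamus, was higher in all 8 as well but ranged from 0.36 to 3.44. Of 20 transcription factors of the hypothalamus past the filter, 9 were higher in all 8 sections and none was lower in all 8. The summed lists of the paraventricular, lateral, arcuate, ventromedial, dorsomedial and preoptic regions were higher in members in all 8 sections. The mammillary list was higher in 6 of 8. The suprachiasmatic list went the other way, with 23.5 to 42.6 CPM in members and 65.5 to 80.5 CPM outside. The list of tanycytes, a cell type of the hypothalamus, was higher by sum in 1 of 8 (median log2 ratio -0.42).

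Ligands varied widely from section to section, with a summed level of 3164 to 11521 CPM in members. Of 26 neuropeptide genes past the filter 15 were higher in members in all 8 sections and 3 were lower, with a median log2 ratio of 1.61. Avp ranged from -1.83 to 6.15, Oxt from -0.33 to 6.26 and Hcrt from 0.41 to 5.08. Gal, galanin, ranged from 1.54 to 5.01, Nts, neurotensin, from 1.60 to 3.10, and Cartpt, the precursor of the appetite-suppressing peptide CART, from 2.12 to 4.42. Of 29 receptors for hormones, nutrients and peptides 17 were higher in all 8 sections and 1 was lower, with a median of 0.93. Calcr, the calcitonin receptor, had 7.08 to 25.2 CPM in members and 0.327 to 0.997 CPM outside, Mc4r, the melanocortin receptor of energy balance, 1.72 to 11.4 CPM and 0.795 to 2.41 CPM, and Esr1, oestrogen receptor alpha, 6.50 to 18.5 CPM and 1.31 to 3.71 CPM. Calcr and Esr1 did not overlap between members and other spots. Thra, thyroid hormone receptor alpha, was far more abundant at 565 to 762 CPM in members and made up most of the receptor list's sum of 1083 to 1290 CPM.

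Imprinted genes, which are expressed from 1 parental copy and are known for high levels in the hypothalamus, were higher in all 8 sections for 21 of 30 genes past the filter and lower in all 8 for 2, with a median log2 ratio of 0.75. Dlk1, also imprinted, was counted with the score and not here. Magel2 had a ratio of 3.24 (2.45 to 3.73), Peg10 of 2.67 (2.19 to 3.47), Nnat of 1.97 (1.49 to 2.17) and Ndn of 1.83 (1.42 to 2.12). For transmitters, Gad2 and Slc32a1, which make and load GABA, were higher in members in all 8 sections at 1.30 (0.96 to 1.55) and 0.97 (0.85 to 1.46). Slc17a7, the vesicular glutamate transporter of cortical neurons, was lower at -3.51 (-3.77 to -1.57).

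Genes of most neighbouring tissues were scarcer in the members. All 6 thalamus genes, all 5 genes of cortex and cortical amygdala past the filter and 5 of 7 striatum genes were lower in all 8 sections. The habenula list went the other way: its sum was higher in members in 7 of 8 sections, at 66.7 to 180.5 CPM against 44.5 to 92.1 CPM, with 1 of its 3 genes past the filter higher in all 8. One of its 5 genes, Tac2, is also in the arcuate list. Ttr, the transthyretin of the choroid plexus, was lowest of all at -4.16 (-5.45 to -3.10). Of 15 genes of oligodendrocytes and myelin 12 were lower in all 8, and their summed level was 2875 to 4373 CPM in members and 4596 to 7072 CPM outside. Of 14 genes induced by neuronal activity 12 were lower in all 8 sections, with a median of -1.44. The lists of microglia (13 genes, 1 lower in all 8) and astrocytes (14 genes, 4 higher and 5 lower) showed no common direction.

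Peptide levels in members differed widely between sections. Avp stood at 793 and 0 CPM in the members of the Control sections, 3011 and 2224 CPM in the PTX sections, 18.8 and 27.6 CPM in the PTX+GCV sections and, under the PTX+ABT263 label, 4.99 and 7.30 CPM. Hcrt stood at 2889 and 1.12 CPM, 58.7 and 7.56 CPM, 2234 and 2716 CPM, and 1045 and 1790 CPM in the same order. Both PTX sections were thus high in vasopressin and low in orexin, the 4 sections given a senolytic agent were the reverse, and the Control sections differed between themselves.

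Pmch went with Hcrt, at 4099 and 213 CPM in the Control sections, 410 and 1.03 CPM in the PTX sections, 3014 and 2690 CPM in the PTX+GCV sections and, under the PTX+ABT263 label, 6029 and 2242 CPM. Oxt stood at 751 and 0.373 CPM, 499 and 2508 CPM, 110 and 7.59 CPM, and 60.5 and 73.9 CPM in that order. Control section 2 differed from all others. It had 0 UMIs of Avp in members, where a floor of 3 UMIs is 1.12 CPM. It had 42.9 CPM of Hdc, which makes histamine in the tuberomammillary nucleus, against 0.252 to 23.5 CPM in the other 7. Its Cartpt, 953 CPM in the other cluster and 30.7 CPM in the peptide-rich one, lay on the opposite side from the other 7 sections, but the order of its clusters rested on Pmch, as given above. The other 7 had 209 to 1244 CPM in the peptide-rich cluster and 62.5 to 292 CPM in the other.

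Much of a peptide's level came from a few spots. In Control section 1 a single spot held 1235 of the 2198 Avp UMIs of the members (56.2%), and in PTX section 1 a single spot held 6295 of 11944 (52.7%). In both PTX sections most Avp lay in the other cluster, with 4118 and 4261 CPM there and 1095 and 433 CPM in the peptide-rich cluster. The richest spot held 10.1% to 14.7% of the members' Hcrt UMIs in the 5 sections where Hcrt was highest. The members did not hold all of a peptide either. They had 64.3% to 78.4% of the Hcrt UMIs of the kept spots in those 5 sections and 35.5% to 70.9% of the Pmch UMIs.

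**Figure D4:**
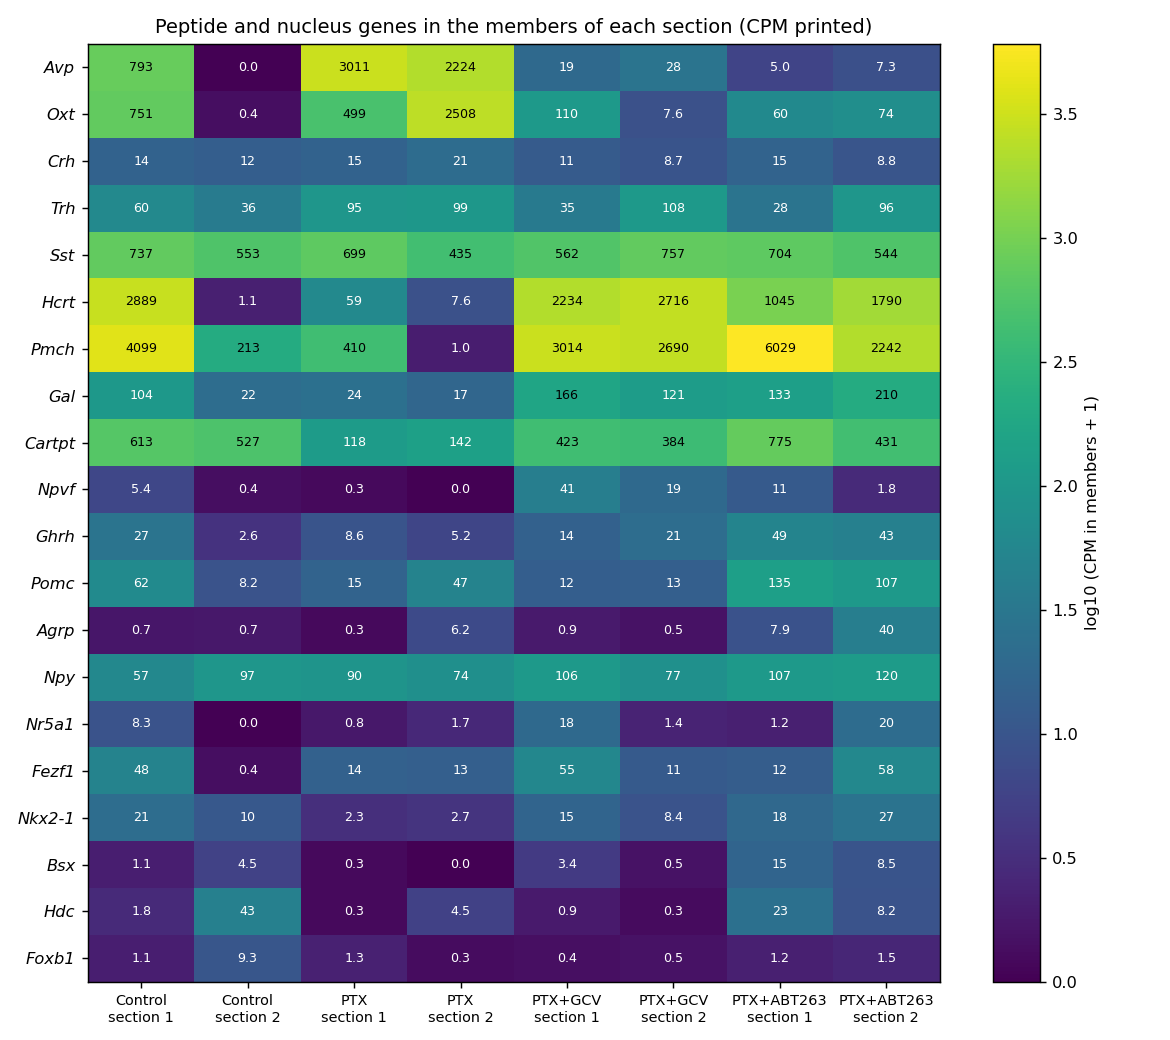
Level of 20 peptide and nucleus genes (rows) in the summed members of each section (columns), with the CPM printed in each cell and the colour giving log10 of CPM + 1. The PTX sections are high in Avp (3011 and 2224 CPM) and low in Hcrt (58.7 and 7.56 CPM), and Control section 2 has 0 CPM of Avp and 42.9 CPM of Hdc.

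Groups were compared on the UMIs summed over the members of each section, with the 6 score genes left out of the tests. In such sums fewer cells of a type and less RNA per cell cannot be told apart. Levels from here on are CPM on library sizes corrected by TMM factors, and adjusted p-values are from edgeR's quasi-likelihood test with Benjamini-Hochberg adjustment over 12627 genes at a threshold of 0.05. Both senolytic groups were compared with the same PTX sections, so those comparisons are not independent of each other or of PTX against Control.

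In PTX against Control 1 gene fell, Cartpt, and none rose. It is 0.00792% of the genes tested. Cartpt (chromosome 13, 99898483 to 99910179 of mm10) stood at 627 and 552 CPM in the Control sections and 112 and 137 CPM in the PTX sections. All 4 sections of the other groups lay above both PTX sections, at 420 and 360 CPM with PTX+GCV and, under the PTX+ABT263 label, 794 and 461 CPM. The log2 difference between PTX and Control was -2.25 (SE 0.20, n = 2 sections a group, edgeR adjusted p = 0.00031).

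The call held within the other cluster alone (log2 difference -3.21, SE 0.54, edgeR adjusted p = 0.0149) and not within the peptide-rich cluster alone (-1.38, SE 0.75, edgeR adjusted p = 0.745). In the peptide-rich cluster Cartpt stood at 1009 and 30.7 CPM on plain library totals in the Control sections and 209 and 210 CPM in the PTX sections, so the Control sections lay on both sides of PTX. In the other cluster the values were 134 and 953 CPM against 66.9 and 62.5 CPM. In the spots outside the members the log2 difference of Cartpt was -0.14 (edgeR adjusted p = 0.822). With the clusters of Control section 2 exchanged, an alternative chosen after seeing the data, neither cluster gave a call: the log2 difference was -2.32 (SE 0.32, edgeR adjusted p = 0.182) in the peptide-rich cluster and -0.49 (SE 0.50, edgeR adjusted p = 0.882) in the other. Section level moved with these groups (Avp and Hcrt above), and its part in the result was not tested.

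The remaining genes with the smallest p did not pass. Gad2, which makes GABA, stood at 268 and 229 CPM in the Control sections and 376 and 391 CPM in the PTX sections, a log2 difference of 0.62 (SE 0.11, edgeR adjusted p = 0.0762). Bdnf, a growth factor of neurons, stood at 37.3 and 29.7 CPM against 14.6 and 11.6 CPM (-1.33, SE 0.22, edgeR adjusted p = 0.0755). Hpcal4, a neuronal calcium sensor, stood at 387 and 440 CPM against 257 and 224 CPM (-0.78, SE 0.11, edgeR adjusted p = 0.0548). Snhg11, a non-coding RNA of neurons (0.78), Wsb1 (0.70), Glp1r, the receptor of glucagon-like peptide 1 (2.09), and Caprin2 (1.28) were the other genes higher with PTX, and Cmip (-1.64) and Phyhip (-0.78) the others lower. The sections of the 2 groups did not overlap for any of these genes, nor for 37.9% of all genes tested.

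By list, 1 of 26 neuropeptide genes passed (Cartpt, lower; list median -0.32), and none of 29 receptors (-0.20), of 20 transcription factors (-0.34), of 30 imprinted genes (0.03) or of 11 transmitter genes (0.08). The median over all genes was -0.01. Nucleus lists moved apart. The paraventricular list had a median of 1.10, the lateral -0.72, the ventromedial -1.20, the dorsomedial -0.77 and the preoptic -1.39. For the arcuate and suprachiasmatic lists it was -0.18 and 0.20. Of all these genes only Cartpt was called, and the part of section level in the medians was not tested. The 13 mitochondrially encoded genes had a median of -0.38 with none called, their summed level on plain library totals being 110480 and 132150 CPM in the Control sections and 103480 and 107710 CPM in the PTX sections. The 9 genes of meninges and fibroblasts past the filter had a median of 1.02 with none called, and a summed level over all 11, none of them at 0, of 479 and 698 CPM against 813 and 1790 CPM. Neither sum overlapped between the groups, and their part in the Cartpt result was not tested. The count of 1 was 75 without Control section 1 and 11 without Control section 2, with 6 without either PTX+GCV section and 2 without PTX section 1. DESeq2 called 6 genes, 2 higher and 4 lower, and edgeR gave 1110 genes an unadjusted p under 0.05.

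With GCV after PTX 6 genes rose against PTX (0.0475% of the genes tested) and none fell. Cartpt was higher, at 420 and 360 CPM against 112 and 137 CPM (log2 difference 1.65, SE 0.20, n = 2 sections a group, edgeR adjusted p = 0.0125). Plagl1 (chromosome 10, 13090832 to 13131694), an imprinted zinc-finger gene of growth control, stood at 65.0 and 42.6 CPM against 19.2 and 17.9 CPM (1.49, SE 0.23, edgeR adjusted p = 0.0323). Npvf, the precursor of the RFamide peptides of the dorsomedial nucleus, had 95 and 69 UMIs against 1 and 0. The groups did not overlap for any of these 3 genes.

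For Npvf that is 187 times the PTX level on library totals, with a counting interval of 33.1 to 7434 (exact, 95%), and edgeR's adjusted p was 0.0288. Its UMIs came mostly from few spots, 1 spot holding 71.6% of them in PTX+GCV section 1 and 37.7% in section 2. Cmbl (chromosome 15, 31565342 to 31590119), a hydrolase, stood at 68.4 and 54.5 CPM against 27.4 and 24.9 CPM (1.21, SE 0.17, edgeR adjusted p = 0.0261). Rasal1, a regulator of Ras, was higher by 0.82 and Aldh3b2, an aldehyde dehydrogenase, by 1.57 on the log2 scale. For Cmbl, Aldh3b2 and Rasal1 the other cluster was the higher of the clusters in both PTX+GCV sections, with 106 and 69.6 CPM of Cmbl there against 38.7 and 37.0 CPM in the peptide-rich one on plain library totals.

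Section level moved with these groups too. On plain library totals Hcrt stood at 2234 and 2716 CPM with PTX+GCV against 58.7 and 7.56 CPM with PTX, and Avp went the other way. The summed myelin level was 3875 and 3741 CPM against 4199 and 4373 CPM. The sections of the 2 groups did not overlap for 12 of the 15 myelin genes, against 37.1% of all genes tested. None of the 15 was called. The part of section level and of myelin in the 6 calls was not tested.

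Lower values with GCV did not pass. Ighm, the heavy chain of immunoglobulin M, came closest (-1.40, SE 0.24, edgeR adjusted p = 0.0562). Avp had 18.7 and 25.9 CPM against 2867 and 2145 CPM and did not pass either. Gh, growth hormone, had 0 UMIs in both PTX+GCV sections and 154 in the PTX sections together, so its PTX level was at least 45.0-fold higher (a floor of 3 UMIs over the group); it did not pass. Of those UMIs 130 came from PTX section 2, 77 of them from 1 spot, and without that section the bound was 12.2-fold. By list, 2 of 26 neuropeptide genes were called higher, Cartpt and Npvf (list median 0.10), and 1 of 30 imprinted genes, Plagl1 (0.02). None of 29 receptors (0.16) or 20 transcription factors (0.18) was called. Among nucleus lists the paraventricular median was -1.29, the lateral 0.60, the ventromedial 1.17, the dorsomedial 1.42 and the preoptic 0.86. Each had the opposite sign in PTX against Control, which shares the PTX sections. The arcuate and suprachiasmatic medians were 0.01 and -0.72. The part of section level in these medians was not tested.

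None of the 6 genes passed in the spots outside the members, where 5 of 16455 genes were called (0.0304%) and their log2 differences ranged from 0.22 for Aldh3b2 to 5.59 for Npvf. The sections of the 2 groups did not overlap for 37.1% of all genes, and edgeR gave 831 genes an unadjusted p under 0.05. Without the sections labelled PTX+ABT263 in the fit the count was 2, and it was 2 without either one. It was 1 without PTX section 1, 0 without PTX section 2, 0 without PTX+GCV section 1, 16 without PTX+GCV section 2 and 18 without either Control section. Cartpt lost its call without PTX section 1 (edgeR adjusted p = 0.161), PTX section 2 (0.232) or PTX+GCV section 1 (0.0653). Within the peptide-rich cluster alone its log2 difference was 1.84 (SE 0.75, edgeR adjusted p = 0.826) and within the other alone 1.60 (SE 0.56, edgeR adjusted p = 0.488).

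The sections labelled PTX+ABT263 differed from PTX in 56 genes (0.443% of the genes tested), 31 higher (0.246%) and 25 lower (0.198%). Under plain library totals, which moved the median of all genes to -0.12, the split was 30 higher and 62 lower. Of the 56 genes 8 lie on the sex chromosomes in GENCODE's annotation of the same build: Ddx3y, Eif2s3y, Kdm5d, Uty and the non-coding Gm29650 on Y and Xist, Rbm3 and 2010204K13Rik on X. Xist was at least 70.5-fold higher than in PTX (206 UMIs against a floor of 3 over the group). The treatment and the sex of the tissue are confounded in every value that follows.

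Peptide genes made up 5 of these calls, out of 26 tested, 4 higher and 1 lower (list median 0.52). Section level also moved with these groups. On plain library totals Hcrt stood at 1045 and 1790 CPM against 58.7 and 7.56 CPM with PTX. Avp, itself called, went the other way. The part of section level in the calls was not tested. Cartpt stood at 794 and 461 CPM against 112 and 137 CPM (log2 difference 2.34, SE 0.20, n = 2 sections a group, edgeR adjusted p = 4.67e-05). Gal (chromosome 19, 3409915 to 3414544) stood at 136 and 224 CPM against 22.8 and 16.2 CPM (3.17, SE 0.46, edgeR adjusted p = 0.00924). Ghrh, growth hormone-releasing hormone, stood at 50.2 and 46.5 CPM against 8.16 and 4.97 CPM (2.83, SE 0.50, edgeR adjusted p = 0.0253). The groups were well apart for each of these, and Control section 2 lay as low as PTX for Gal (22.7 CPM) and Ghrh (2.73 CPM) while Control section 1 did not.

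Grp, gastrin-releasing peptide, was higher by 1.74 on the log2 scale. Avp was lower, at 5.11 and 7.80 CPM against 2867 and 2145 CPM (-8.60, SE 1.47, edgeR adjusted p = 0.022), with Control at 811 and 0 CPM. Among transcription factors Nkx2-1 stood at 18.3 and 28.6 CPM against 2.16 and 2.65 CPM (3.28, SE 0.45, edgeR adjusted p = 0.00716). Bsx, a homeobox gene of arcuate and dorsomedial neurons, had 52 and 28 UMIs against 1 and 0, a ratio of 82.2 with a counting interval of 14.3 to 3286. Meis2 was lower by a log2 difference of -1.68. Thus 2 of 20 transcription factors rose and 1 fell (list median 0.13).

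Of other hypothalamic lists, 3 of 13 hypothalamus-enriched genes rose (Nkx2-1, Ngb and Asb4; list median 0.50), as did 2 of 4 genes of the dorsomedial nucleus (Grp and Ppp1r17; 2.22) and 2 of 8 arcuate genes (Cartpt and Ghrh; 2.24). None of 29 receptors was called (0.34). Outside those lists Serpina3n, a secreted protease inhibitor known from reactive astrocytes, stood at 65.2 and 65.0 CPM against 22.3 and 26.5 CPM (1.43, SE 0.21, edgeR adjusted p = 0.00924). Its Control sections stood at 43.55 and 22.3 CPM. On plain library totals Serpina3n had 94.85 and 61.7 CPM against 27.7 and 31.4 CPM in the peptide-rich cluster. In the other cluster the sections of the 2 groups overlapped. None of 14 astrocyte genes was called (list median 0.03). Bdnf was higher by 1.31 on the log2 scale, at 36.9 and 28.9 CPM against 14.6 and 11.6 CPM.

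Genes lower in the sections labelled PTX+ABT263 included 2 of 14 activity genes (list median -0.72), Fos at 24.6 and 24.4 CPM against 55.9 and 47.7 CPM (-1.09, SE 0.20, edgeR adjusted p = 0.0285) and Nr4a1 (-1.32). Rbm3, a cold-induced RNA-binding protein, stood at 52.6 and 54.6 CPM against 98.9 and 91.5 CPM (-0.83, SE 0.15, edgeR adjusted p = 0.0253) and was the 1 called gene of 17 clock and cold-induced genes (list median 0.06). Cplx1 and Syt1, which act in vesicle fusion, were lower by log2 differences of -0.72 and -0.57. Gad2 was lower by -0.60, at 265 and 241 CPM against 376 and 391 CPM, near the Control sections. Gh had 0 UMIs against 24 and 130.

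**Figure D5:**
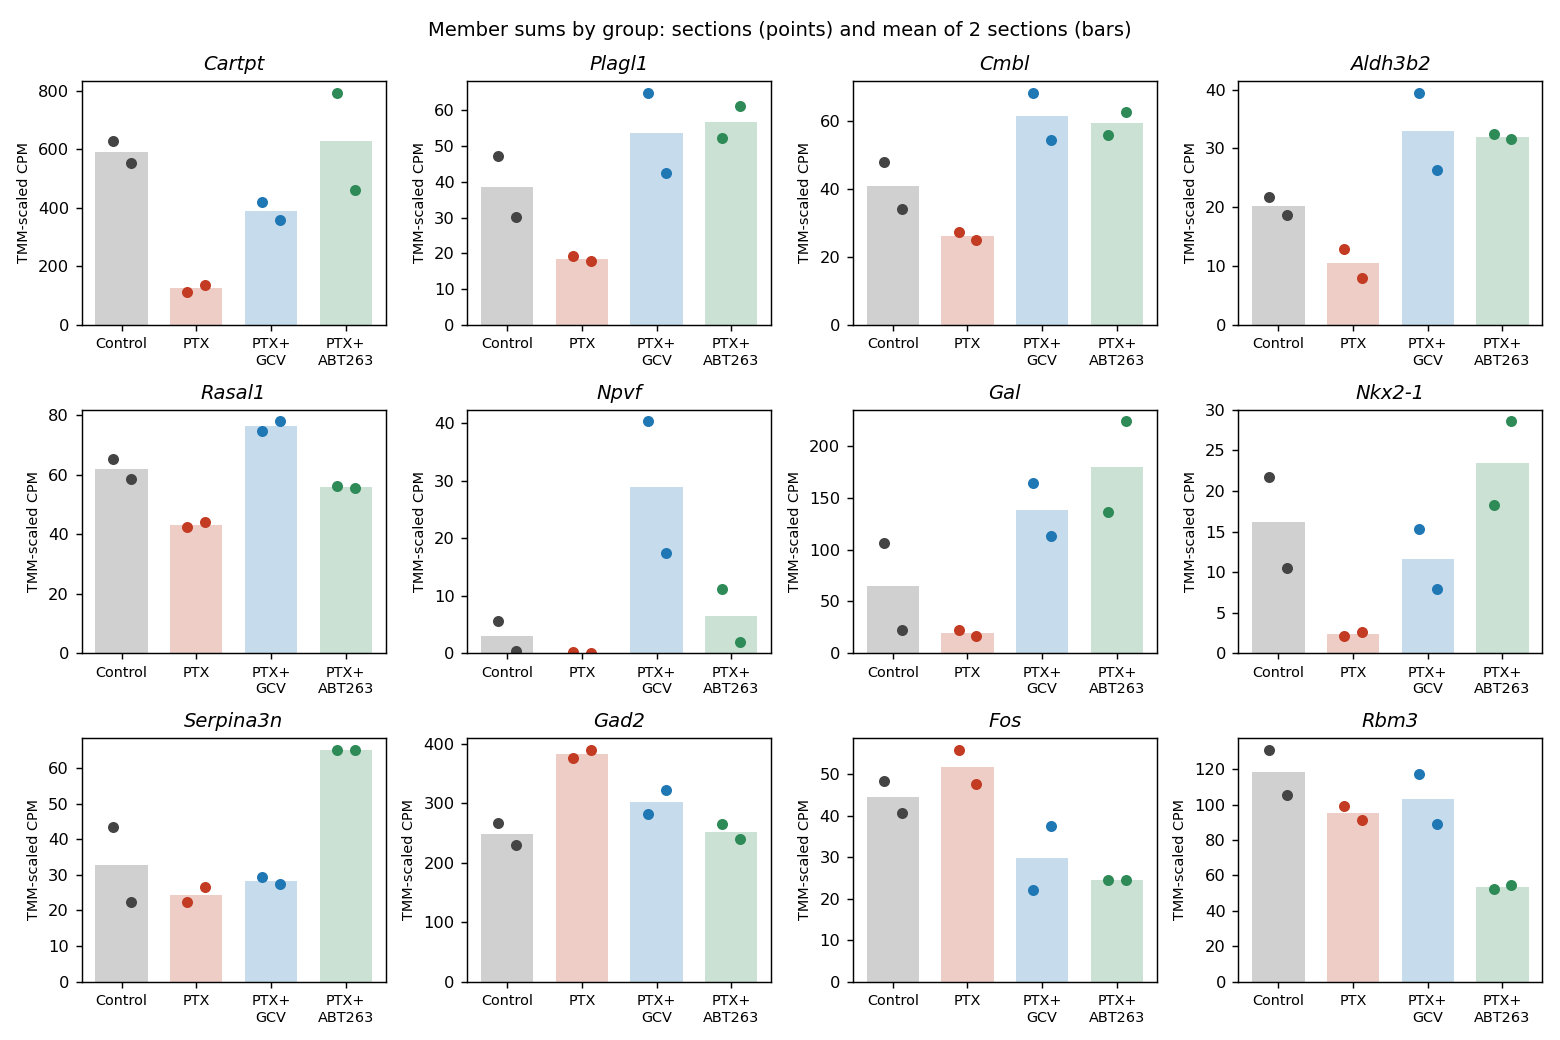
TMM-scaled CPM of 12 genes in the summed members, by group. Points are the 2 sections of each group and bars their mean, on linear axes that start at 0, and Cartpt is lowest in the 2 PTX sections (112 and 137 CPM).

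Of these 56 genes 7 were also called in the spots outside the members, where 23 of 16455 were called (0.14%): Rbm3, Xist and the 5 Y-linked genes, and 50 had the same sign there. The share of members that lay in the peptide-rich cluster moved with the groups, 40.2% and 52.9% in the PTX sections against 56.3% and 66.0%, as did the summed myelin level, 4199 and 4373 CPM against 3274 and 2875 CPM on plain library totals over 15 genes, none of them at 0. Their part in the result was not tested. Within the peptide-rich cluster alone 22 genes were called, 19 of them among the 56, and within the other cluster alone 50, 20 of them among the 56. Cartpt was called in neither, with a log2 difference of 2.19 (SE 0.75, edgeR adjusted p = 0.374) in the peptide-rich cluster and 1.31 (SE 0.58, edgeR adjusted p = 0.455) in the other. With the clusters of Control section 2 exchanged the cluster counts were 4 and 5. The count was 6 without PTX section 1, PTX section 2 or section 2 labelled PTX+ABT263, 22 without section 1 of that label, 113 without Control section 1 and 116 without Control section 2. The 2 groups did not overlap for 43.4% of all genes.

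Whether a group difference was particular to the members was tested directly, by the within-section difference of log2 CPM between members and other spots. With limma 0 of 12627 genes (0%) passed in each of the 3 comparisons, with 800, 696 and 1020 genes at an unadjusted p under 0.05 for PTX against Control, PTX+GCV against PTX and PTX+ABT263 against PTX. For Cartpt the difference of differences was -2.11 in PTX against Control (SE 0.51, limma adjusted p = 0.752). The differences in members are thus not shown to exceed those in the rest of the section.

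Cdkn2a, the gene of the p16 protein and the basis of the p16-3MR design, was almost absent. Members with a UMI numbered 0 of 164 and 0 of 180 in the Control sections, 1 of 179 and 0 of 191 in the PTX sections, 1 of 194 and 0 of 199 in the PTX+GCV sections and, under the PTX+ABT263 label, 0 of 197 and 1 of 188. By exact binomial 95% intervals, for counting error only, a count of 0 spots allows a share of up to 2.22% and 2.03% in the Control sections. For PTX section 1, 1 spot of 179 is 0.559% (interval 0.0141% to 3.07%). The difference between PTX and Control was 0.279 percentage points, and the exact two-sided permutation test gave p = 1, where 0.333 is the smallest that 2 sections against 2 allow. The other 2 comparisons also gave p = 1 in the exact permutation test. No comparison of 2 sections against 2 could pass this test. In the spots outside the members the share with a UMI was 0.0917% and 0.209% in the Control sections, 0.631% and 0.354% in the PTX sections, 0.0775% and 0.152% in the PTX+GCV sections and, under the PTX+ABT263 label, 0.344% and 0.20%. Both PTX sections lay above the other 6 there, on 2 to 15 spots a section, and the exact two-sided permutation test gave p = 0.333, the smallest possible, in each comparison with PTX. PTX section 2 and section 1 labelled PTX+ABT263 each had 9 such spots, with exact intervals of 0.162% to 0.671% and 0.157% to 0.651%. These spots held 38919065 and 35201985 UMIs in the PTX sections and 17100129 to 34891668 in the other 6. The part of depth was not tested. Of 10 cell cycle inhibitors and senescence genes, 13 genes that senescent cells are known to secrete and 10 BCL-2 family genes past the filter, edgeR called none in any comparison, with list medians between -0.07 and 0.13.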

How the data were processed

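Visium UMI counts per spot and gene were deposited by the authors as raw counts, 32285 features a section, made with Space Ranger 1.2.1 against mm10 per the file headers and labels. Seurat 4.0 is also named in the submitters' notes, with no step in the counts. Groups came from the labels. UMIs of members were summed per section and tested with edgeR 4.0.16 (TMM factors, filterByExpr by group, all 8 sections in 1 fit). Differences between members and other spots were tested with limma 3.58.1 (prior count 2). Gene positions are from RefSeq's table of the same build, and chromosomes of called genes from GENCODE M21. The 6 score genes stayed in library sizes and out of tests. Members, gene lists and tests were chosen with earlier results of these data known. Clusters were made after the members had been mapped, by dividing the members with at least 2 touching members into 2 by position and adding members within 0.3 mm. Named genes were the called genes with the smallest adjusted p whose sections did not overlap, up to 10 in each direction, or the 5 with the smallest p where under 5 passed, and genes of the lists; Gh, Meis2, Ngb, Syt1 and others beyond those 10 were chosen after their values were seen. The tests were tried on simulated counts with 200 changed genes, the same spread for every gene and no differences of section level. Such counts cannot show how often section level leads to a call. Alternatives were DESeq2 1.42.0, library totals, no filter, other members (top 5% or 10%, largest patch, each cluster), a replicate block and leaving out each section.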

Additional observations from a re-analysis of the deposited data

How the results depend on the processing

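The direction of each called gene followed here was kept under every alternative run. Over all named genes 1 of 11952 values was counted as reversed. It was Th in PTX+ABT263 against PTX within the other cluster alone (log2 difference -2.93, edgeR adjusted p = 0.0435), an alternative chosen after seeing the data. That count leaves out other changes of sign, such as that of Sst between the clusters. On plain library totals Sst stood at 749 and 444 CPM with PTX against 384 and 99.0 CPM with Control in the peptide-rich cluster. In the other cluster it was lower with PTX, at 680 and 433 CPM against 1177 and 920 CPM. Counts of called genes moved too. For PTX against Control (1) they were 6 with DESeq2, 226 with no filter, 7 with only the 2 groups in the fit, 4 with the top 5%, 10 with the top 10%, 0 with the largest contiguous patch, 3 with all spots under tissue, 3 in the peptide-rich cluster and 22 in the other cluster, and 1 to 75 leaving out 1 section. For PTX+GCV against PTX (6) they were 159 with no filter, 20 with only the 2 groups, 2 without the PTX+ABT263 group, 11 with the top 5%, 3 with the top 10%, 0 with the largest patch and 3 in the peptide-rich cluster, and 0 to 18 leaving out 1 section. For PTX+ABT263 against PTX (56) they were 92 with library totals, 400 with no filter, 213 with only the 2 groups, 2 with the largest patch and 22 in the peptide-rich cluster, and 6 to 116 leaving out 1 section. The largest patch lay in the peptide-rich cluster in 5 sections and in the other cluster in 3, so it compares unlike tissue. With the clusters of Control section 2 exchanged, the peptide-rich cluster gave 0, 0 and 4 calls in the 3 comparisons and the other 2, 1 and 5. All cluster alternatives were chosen after seeing the data. For the remaining moves the cause was not tested. Sections of the same number did not deviate together (correlations of their deviations from group means -0.129 to 0.0638), so the numbers do not pair them; with the replicate block 2, 8 and 41 genes were called. The difference between members and other spots gave 0 calls under every alternative run, the replicate block included. The Cdkn2a difference ranged from 0 to 0.559, -0.301 to 0.258 and -0.293 to 0.266 percentage points leaving out 1 section. Depth (2338086 to 3967335 UMIs in members) limits rare transcripts, and 2 sections a group limit all tests.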

Other observations

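Interferon and MHC class I genes, a list of 11 genes all past the filter, had a median log2 difference of 0.71 in PTX+GCV against PTX, where the median over all genes was -0.00204. Their summed level on plain library totals was 446 and 330 CPM with PTX+GCV and 294 and 371 CPM with PTX, so the groups overlapped. In the sections labelled PTX+ABT263 against the same PTX sections the list's median was also 0.71 (all genes 0.00197), with a summed level of 357 and 407 CPM that overlapped PTX as well. Both medians share the 2 PTX sections. In PTX against Control the median was 0.19. edgeR called none of the 11 in any comparison. In members against the other spots their median log2 ratio was 0.32, and 1 of the 11 was higher in all 8 sections.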
